A study of Rattus norvegicus with 10 samples.

Results

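The 5 control libraries described here were made from rat tendon-derived stem cells (TDSCs) after 3 days of osteogenic induction, with no farnesol added. They are 5 of the 10 libraries of the series and were chosen by their labels, not by any measured value; the other 5 received farnesol and were not used. TDSCs are progenitor cells grown out of tendon, and osteogenic induction is a culture medium that steers such cells towards bone. All 5 libraries carry the same labels apart from the replicate number. By title the cultures were not treated, but the names of the libraries hint at a vehicle, and whether a solvent was added is open. The labels also do not give the strain, sex and age of the rats, the tendon, the passage or the make-up of the medium, and while the titles number the libraries as biological replicates, separate animals or cultures are not mentioned. The spread given throughout is that between these 5 libraries, and what part of it is technical is not known.

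Tendon cells are fibroblasts that lay down parallel fibres of type I collagen, bound by small proteoglycans and by glycoproteins such as tenascin-C. Scx and Mkx are the transcription factors best known for the tendon fate. In the osteoblast fate Runx2 acts first and Sp7 after it, then come alkaline phosphatase and bone matrix proteins, and osteocalcin marks a late stage. Ossification inside a tendon is a known outcome of injury, and induced tendon progenitors are a culture model of its start.

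Levels are the deposited FPKM values, counts scaled by gene length and by the total of the library, which put genes of different length on 1 scale. How completely the reads of each gene were counted was not tested, and this limits comparisons between genes. Means of the 74 ribosomal protein genes, for example, ran from 799 FPKM (Rps3a) to 2.81 FPKM (Rpl36). The libraries held 45294157, 45360882, 41843213, 44375827 and 47105738 counts in replicates 1 to 5. Values with ± are mean ± SD over the libraries (n = 5). A gene is called detected here when it reached 1 FPKM in all 5 libraries. Of 23051 genes 9933 were detected, or 43.1%, which is the background for every list below, and 6214 had no count in any of the 5 libraries. The median of all genes was 0.400 FPKM and that of the detected genes 8.84 FPKM. Replicates 1 and 3 lay at opposite ends of a difference that runs with gene length (described last), and replicate 3 was high for short genes and low for long ones. In bulk RNA a lower level in fewer cells and a lower level per cell cannot be told apart.

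Among nuclear genes a secreted protein, osteopontin, stood far above the rest in all 5 libraries. Spp1 encodes this phosphoprotein of bone matrix that binds integrins and calcium (chromosome 14, 5308885 to 5315162, minus strand, build rn7 per the submitters' processing notes). Its level was 16229.9, 16565, 16116, 16432 and 16497 FPKM in replicates 1 to 5. It alone made 4.79 ± 0.143% of the FPKM of nuclear genes and varied little, with a coefficient of variation (SD over mean) of 1.15%. Next came Mgp, matrix Gla protein, an inhibitor of calcification, at 4153, 4606, 5068, 4484 and 4474 FPKM. Sparc, osteonectin, a collagen-binding glycoprotein of bone and tendon, was at 3933, 4118, 4437, 4298 and 4131 FPKM. The lowest Spp1 value lay above the highest Mgp value, while the ranges of Mgp and Sparc overlapped, although Mgp was the higher of both in each library. S100a6, a small calcium-binding protein, had 3879.6 ± 523 FPKM, and Vim, the intermediate filament of mesenchymal cells, 3771 ± 168 FPKM. Acta2 (smooth muscle actin, 3726 ± 228 FPKM), Tagln (transgelin, 3636 ± 279 FPKM) and Actb (beta-actin, 3433 ± 249 FPKM) followed with overlapping ranges. Fn1, fibronectin, stood at 3367 ± 272 FPKM.

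Penk ranked 10 among nuclear genes (chromosome 5, 17183806 to 17189129, minus strand). It encodes proenkephalin, the precursor of the enkephalin opioid peptides, and is best known from neurons and the adrenal medulla. Its values were 2652, 2818, 3333, 2979.7 and 2878 FPKM, above those of Col1a1 in each of replicates 1 to 5. Further down the first 30 stood Thbs1 (thrombospondin 1, 2321 ± 278 FPKM), Ccn2 (connective tissue growth factor, 2241 ± 30.6 FPKM), S100a4 (a calcium-binding protein, 2119 ± 212 FPKM) and Itgb1 (the beta-1 integrin chain, 1321 ± 80.7 FPKM).

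**Figure D1:**
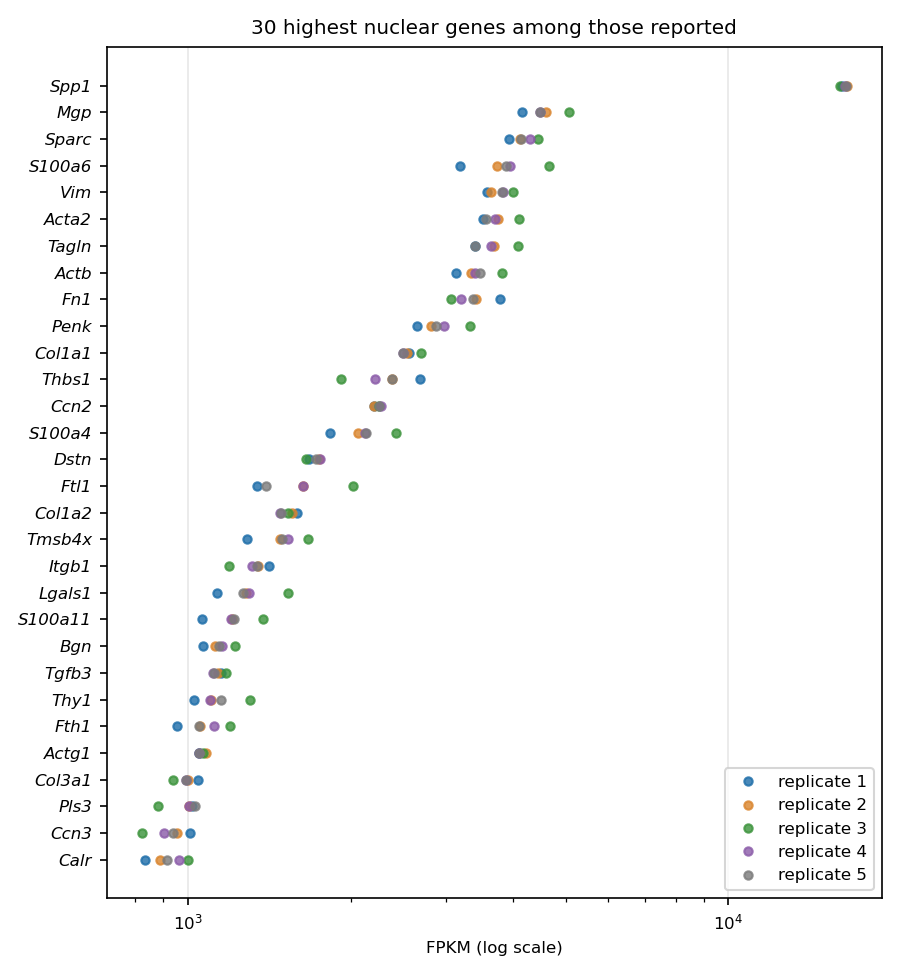
The 30 nuclear genes with the highest mean level among those reported here, in order from the top, with FPKM on a log axis and 1 point for each of the 5 libraries. Spp1 lies between 16116 and 16565 FPKM, apart from Mgp at 4153 to 5068 FPKM, and most of the other genes overlap with their neighbours.

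The 100 genes with the highest mean held 44.5 ± 0.839% of all FPKM. The 13 protein genes of the mitochondrial genome alone held 17.02 ± 0.858% of FPKM and 7.39 ± 0.509% of counts, which are not divided by gene length. They were led by COX1, a subunit of cytochrome c oxidase, at 21234 ± 1128 FPKM. Genes that the deposited annotation places in the extracellular matrix were 1.41% of genes and 9.64% of FPKM, and they took 22 of the first 100 places among nuclear genes. Genes annotated to the extracellular space or region were 8.35% of genes and 22.7% of FPKM, and took 43 of the same 100 places. Genes annotated to the nucleus took 25 of them, at 21.4% of genes, and those of calcium ion binding 22, at 2.79% of genes; a gene can be in several of these classes. Transcription factors were 4.08% of genes and 0.986% of FPKM, and they held none of the 100 places.

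The promoters of the most abundant genes were read for the TATA box, the element at which many strongly transcribed genes assemble the polymerase. The letters TATAAA or TATATA were searched on both strands in the 50 bases before the start of each gene with a single start in the RefSeq table (build GRCr8; TATATA reads the same on both strands, the strings can overlap each other, and a promoter counts once). Of the 15124 measured genes that matched by gene identifier 4.63% held them, and the share was 4.45% over all 24206 such promoters. Among the 100 matched genes with the highest mean, at 310.3 FPKM or more, 17 held them. The share was 6.5% in places 101 to 500, 1.73% in places 501 to 2000 and 1.3% in places 2001 to 5000. It was 3.12% in places 5001 to 10000 and 8.51% in the rest, which were at 0.0455 FPKM or less. The share was thus lowest at middle levels and higher at both ends. These are matches of letters and not mapped sites. Spp1, Sparc and Vim were among the 83 of the first 100 without a match. Of the 17 matches 8 are shown, picked after their values were seen as examples of genes with different roles (contractile, matrix, stress response, actin binding for Tmsb10 and glycolysis for Gapdh), with 5′ to 3′ sequence on the strand of the gene, the searched letters in capitals and the last base next to the gene start:
Acta2, chr1:241172504-241172553, minus strand: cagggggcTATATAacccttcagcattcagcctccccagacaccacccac
Ccn2, chr1:22624615-22624664, minus strand: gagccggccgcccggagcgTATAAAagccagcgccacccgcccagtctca
S100a4, chr2:178388479-178388528, plus strand: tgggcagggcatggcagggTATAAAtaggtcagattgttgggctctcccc
Tnc, chr5:82476132-82476181, minus strand: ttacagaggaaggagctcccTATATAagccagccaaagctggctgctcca
Calr, chr19:40213317-40213366, plus strand: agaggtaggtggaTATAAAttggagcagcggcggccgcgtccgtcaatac
Tmsb10, chr4:106569141-106569190, minus strand: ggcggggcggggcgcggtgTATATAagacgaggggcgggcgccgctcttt
Mt2A, chr19:10838709-10838758, minus strand: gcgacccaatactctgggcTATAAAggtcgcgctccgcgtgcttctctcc
Gapdh, chr4:159652468-159652517, minus strand: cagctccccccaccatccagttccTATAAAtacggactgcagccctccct
In these 8 the capitals began 26 (Gapdh) to 42 (Acta2) bases before the gene start, and over all 17 matches they began 6 (Hspa5) to 48 (Eef2) bases before it. Levels ranged from Acta2 down to Tnc at 422 ± 15.9 FPKM. Calr, a chaperone of the endoplasmic reticulum, had 919.9 ± 64.4 FPKM, and Mt2A, a metallothionein, 684 ± 93.2 FPKM.

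Fibril collagens led the collagen genes. Of 43 collagen chain genes 20 were detected (46.5%), close to the background, with a median of 0.733 FPKM. Col1a1 and Col1a2, the 2 chains of type I collagen, were at 2566, 2542, 2703, 2503 and 2498 and at 1595, 1558, 1530.4, 1480.3 and 1486 FPKM. The ratio of Col1a1 to Col1a2 was 1.68 ± 0.0611 over the 5 libraries, where the protein takes 2 alpha-1 chains for each alpha-2 chain. Col3a1, of the thin fibrils of young and healing tendon, had 992 ± 38.3 FPKM, or 0.388 ± 0.0237 of Col1a1. Col5a2, which starts fibrils, had 461 ± 22.01 FPKM. Col6a2, Col6a1 and Col4a1, of the pericellular and basement membrane networks, were at 328 ± 27.3, 323 ± 13.8 and 274 ± 13.1 FPKM. Col11a1, a fibril collagen best known from cartilage, was at 287, 258, 211, 249.6 and 254 FPKM, above Col5a1 (109.6 ± 9.36 FPKM) in each library. Its partner Col11a2 had 0.0972 ± 0.0522 FPKM, and Col2a1, the main cartilage collagen, had 6, 1, 4, 1 and 0 counts in replicates 1 to 5.

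The enzymes that modify and cross-link collagen were nearly all present. Of 21, 20 were detected, with a median of 81.1 FPKM. Serpinh1, the collagen chaperone, had 529 ± 20.99 FPKM, P4hb, of prolyl hydroxylase, 515 ± 12.7 FPKM, and Plod2, a lysyl hydroxylase, 379 ± 34.1 FPKM. Lox, the lysyl oxidase that starts cross-links, varied by 30.5% and was at 612, 457, 258, 366 and 436 FPKM. Its highest value was in replicate 1 and its lowest in replicate 3. All 19 matricellular genes on the list were detected, led by Spp1, Mgp and Sparc. Among proteases and their inhibitors 20 of 22 were detected. Mmp2, a gelatinase, was at 327 ± 5.73 FPKM and Mmp3, stromelysin, at 296 ± 3.24 FPKM. The collagenase Mmp13 had 2.69 ± 0.356 FPKM, and Timp1 and Timp2, inhibitors of these enzymes, 286 ± 25.5 and 113 ± 5.07 FPKM.

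Most markers of fibroblasts and mesenchymal progenitors were detected, against 43.1% of all genes. Of 17 general fibroblast markers 13 were detected (76.5%), with a median of 25.7 FPKM. Of 14 markers of mesenchymal progenitors, most of them surface proteins, 11 were detected (78.6%), with a median of 24.4 FPKM. The 11 included Itgb1, Cd63, Cd9 and Nes, with means of 1321, 757, 172 and 6.98 FPKM. The lists were chosen with earlier results of these data known, so these shares do not test cell identity. Thy1 (CD90), which is used to define such progenitors, was at 1028, 1105, 1303, 1099 and 1152 FPKM. Cd44, the hyaluronan receptor, was at 127 ± 8.91 FPKM, Eng (CD105) at 23.1 ± 1.67 FPKM and Nt5e (CD73) at 3.36 ± 0.425 FPKM. Vcam1 (0.0825 ± 0.0359 FPKM), Lepr (0.278 ± 0.107 FPKM) and Ngfr (0.0494 ± 0.0454 FPKM), which mark marrow stromal progenitors, were not detected. The 4 general fibroblast markers not detected were Pi16, Cd34, Dpt and Dpp4. Pi16 lay near the threshold at 0.837 to 1.56 FPKM, and the means of Cd34, Dpt and Dpp4 were 0.0824, 0.0206 and 0.0100 FPKM. Of 10 pluripotency genes 2 were detected, Klf4 (11.7 ± 0.866 FPKM) and Myc (8.38 ± 0.457 FPKM), which many dividing cells express. Pou5f1 had 4 counts in replicate 1 and 0 in replicates 2 to 5, and Nanog was listed at 0 in all 5.

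**Figure D2:**
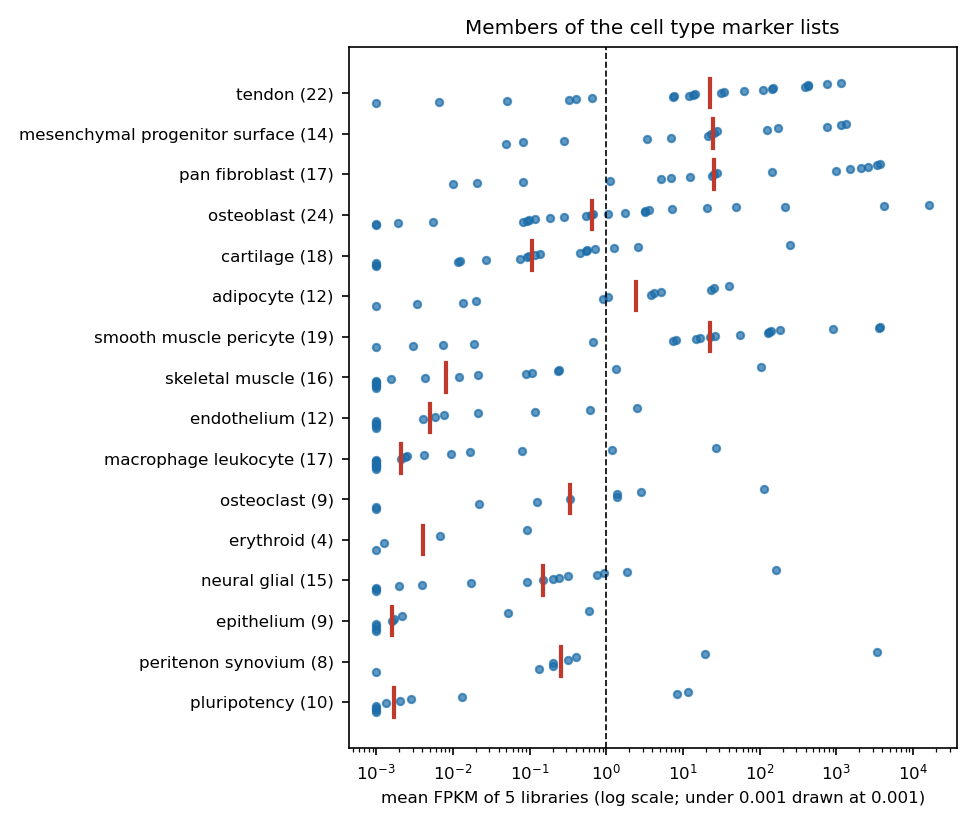
Mean FPKM over the 5 libraries (log axis) of each member with values in the 16 marker lists, 1 point per gene, with the number of these members in brackets. The red bar is the median of the list and the dashed line 1 FPKM; the tendon, progenitor, fibroblast and smooth muscle lists have medians of 22.7 to 25.7 FPKM, and the endothelial, leukocyte, epithelial and erythroid lists have medians of 0.00162 to 0.00502 FPKM.

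Tendon markers were present in part. Of 22 in the list 16 were detected (72.7%), with a median of 22.7 FPKM. Scx was at 28.97, 27.8, 37.6, 30.7 and 29.7 FPKM, highest in replicate 3, and Mkx at 7.74, 6.94, 6.82, 7.92 and 8.16 FPKM, with no overlap between both genes. Egr1, a zinc finger factor that responds to load, was at 7.67, 7.67, 7.53, 7.53 and 7.60 FPKM with a coefficient of variation of 0.933%. Among matrix genes Bgn, biglycan, led with 1065, 1122, 1225, 1158 and 1140.0 FPKM, followed by Htra1, a secreted protease, Thbs2, Tnc and Prelp at 753 ± 29.9, 424 ± 25.3, 422 ± 15.9 and 393 ± 19.9 FPKM. Thbs4, a thrombospondin of tendon, had 147 ± 4.59 FPKM, and Mfap5, of microfibrils, 149.7 ± 10.3 FPKM. The collagens Col12a1 and Col14a1, which bind to the surface of fibrils, were at 63.5 ± 14.9 and 34.5 ± 3.62 FPKM, and Cilp, a matrix protein of cartilage and tendon, at 13.4 ± 0.732 FPKM. Dcn, decorin, which is commonly the main small proteoglycan of tendon, was at 11.9, 11.9, 12.1, 12.1 and 12.7 FPKM, and Bgn exceeded it 93.98 ± 4.74-fold. Fmod, fibromodulin, stood at 14.5 ± 0.39 FPKM, and Dcn and Fmod both lay above the median of the detected genes. Among the 6 members not detected, Lum, lumican, had 10, 5, 18, 14 and 7 counts in replicates 1 to 5, Kera, keratocan, was listed at 0, and Tnmd, tenomodulin, a marker of mature tendon cells, had 1 count in each of replicates 2 and 4 and 0 in the others. Comp, a cartilage and tendon glycoprotein, was at 0.331 ± 0.107 FPKM.

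Several contractile genes stood beside the main matrix genes in level. Of 19 markers of smooth muscle and pericytes 14 were detected (73.7%), and their summed level was 8449 to 9995 FPKM, highest in replicate 3. Acta2 (chromosome 1, 231746548 to 231759554, minus strand) was at 3514, 3751, 4096, 3703 and 3568 FPKM, and the ratio of Acta2 to Actb was 1.09 ± 0.0397. Tagln, an actin cross-linker of smooth muscle, was at 3394, 3686, 4074, 3632 and 3396 FPKM. Myl9, a myosin light chain, had 894 ± 98.7 FPKM, Cnn1, calponin, 182 ± 11.2 FPKM, Lmod1, leiomodin, 133 ± 5.26 FPKM and Myh11, the smooth muscle myosin heavy chain, 135, 129, 123, 121 and 126 FPKM. Myocd, the coactivator of serum response factor that switches on smooth muscle genes, was at 20.6, 16.4, 10.1, 12.2 and 15.1 FPKM, in an order over the libraries opposite to that of Tagln for replicates 1 and 3. The pericyte end of the list was split. Pdgfrb and Cspg4 were at 143 ± 3.71 and 22.9 ± 1.40 FPKM, whereas Rgs5 had 1 count in 1 library, Kcnj8 was listed at 0, and Notch3 and Abcc9 had 0.019 ± 0.0257 and 0.00751 ± 0.00604 FPKM. Des, desmin, was under the threshold at 0.666 ± 0.105 FPKM. Such genes are also expressed by myofibroblasts, and the data do not tell which cells held them. Of 14 genes of the YAP and serum response factor pathways, regulators and targets together, 12 were detected, with a median of 17.1 FPKM. Among the targets, Ankrd1 was at 8.99 ± 0.411 FPKM, Ccn2 at 2209, 2208, 2254, 2276 and 2255 FPKM and Ccn1 at 259 ± 9.79 FPKM.

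The osteoblast list was uneven. Of 24 genes 10 were detected (41.7%), close to the background of 43.1%, and the median was 0.654 FPKM. Runx2 (chromosome 9, 16167482 to 16492167, plus strand) was at 3.80, 4.02, 3.10, 3.55 and 3.76 FPKM, which overlapped with Pparg, the adipocyte regulator, at 5.08, 4.43, 3.43, 4.54 and 3.66 FPKM, and lay below Scx in each library. Msx2, a homeobox factor of early osteoblasts, was at 7.14 ± 0.376 FPKM. Sp7, osterix, had 4 counts in replicate 4 and 0 in the other libraries. Dlx5, which acts beside Runx2, was below 1 FPKM in all 5 libraries (0.547 ± 0.233 FPKM).

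Products of bone cells ranged from the top of the table to the floor. Spp1 and Sparc were among the first 3 nuclear genes, and Omd, osteomodulin, had 48.5 ± 2.91 FPKM. Alpl, tissue-nonspecific alkaline phosphatase, which frees phosphate for mineral, was at 0.937, 1.07, 1.22, 1.23 and 0.883 FPKM, on both sides of the threshold. Ibsp, bone sialoprotein, stood at 3.08, 3.15, 3.00, 3.36 and 3.38 FPKM. Bglap, osteocalcin, had 4, 2, 6, 1 and 0 counts, and Dmp1, of osteocytes, 14, 8, 14, 11 and 14 counts in replicates 1 to 5. Sost, sclerostin, was listed at 0. Ranked within a library, Spp1 was always second after COX1, while Runx2 lay between places 7450 and 7992 and Alpl between 9924 and 10526. Spp1 is not confined to bone cells, since macrophages and smooth muscle also make it.

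**Figure D3:**
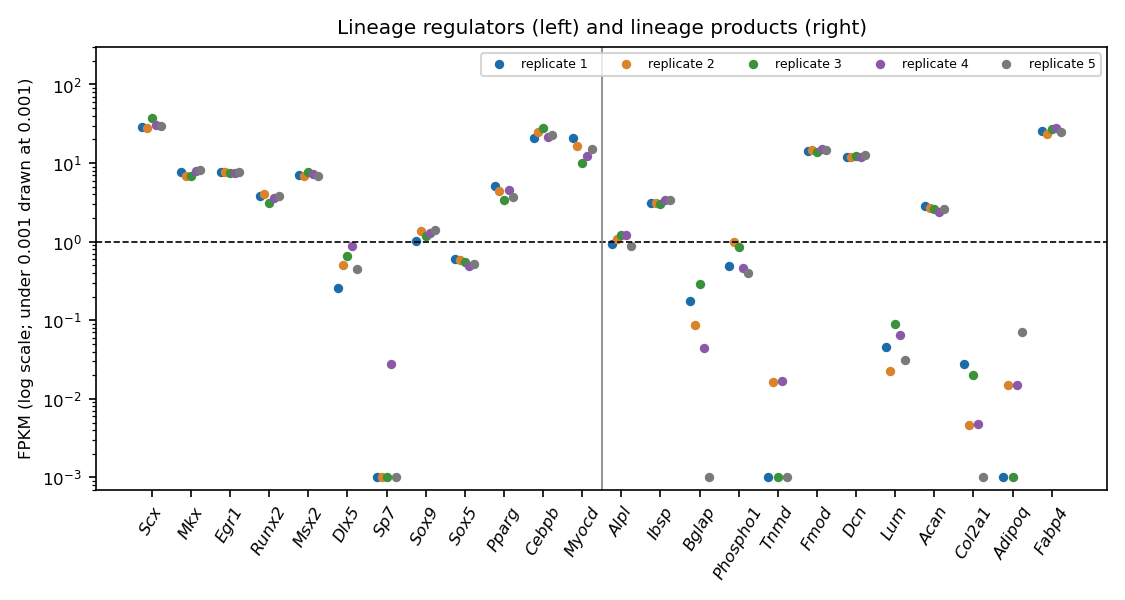
FPKM (log axis, values under 0.001 drawn at 0.001) of 12 lineage regulators on the left and 12 lineage products on the right, with 1 point for each of the 5 libraries and a dashed line at 1 FPKM. Scx, Mkx, Egr1, Runx2, Msx2, Sox9, Pparg, Cebpb and Myocd lie above the line in all 5 libraries, and Sp7, Bglap, Tnmd, Lum, Col2a1 and Adipoq lie below it in all 5.

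Among 13 genes of mineralization 7 were detected, with a median of 3.36 FPKM. Enpp1, which makes pyrophosphate, an inhibitor of crystal growth, was at 59.6, 59.7, 52.7, 57.3 and 58.2 FPKM, or 55.04 ± 10.02-fold the level of Alpl. Ankh, a transporter that raises pyrophosphate outside the cell, was at 11.8 ± 1.24 FPKM. Phospho1, a phosphatase of matrix vesicles, had 0.487, 0.979, 0.859, 0.459 and 0.402 FPKM and no library reached the threshold, and Smpd3 was listed at 0. The phosphate carriers Slc20a1 and Slc20a2 were at 54.96 ± 1.43 and 21.1 ± 0.864 FPKM. Among signals to osteoclasts, Tnfrsf11b, the decoy receptor osteoprotegerin, was at 238, 218, 179, 214 and 223 FPKM. Tnfsf11 (RANKL), the ligand that it binds, had 1 count in replicate 4 and 0 in the other 4 libraries. Csf1, the macrophage growth factor, was at 152 ± 5.82 FPKM.

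Few cartilage genes were detected, and the fat list was mixed. Of 18 cartilage genes 3 were detected (16.7%), Col11a1, Acan and Sox9. Acan, aggrecan, was at 2.81, 2.71, 2.59, 2.36 and 2.62 FPKM and Sox9, the cartilage regulator, at 1.01, 1.36, 1.18, 1.30 and 1.40 FPKM. Col10a1, of hypertrophic cartilage, had 4, 15, 7, 18 and 9 counts. Of 12 adipocyte genes 6 were detected (50%). Cebpd, Cebpb and Pparg, which act early, were at 39.8 ± 4.95, 23.5 ± 2.70 and 4.23 ± 0.676 FPKM, and Fabp4, a fatty acid binder, at 25.8 ± 1.68 FPKM. Dgat2, of triglyceride synthesis, and Plin4, a lipid droplet protein, were also detected, at 5.16 ± 0.317 and 3.82 ± 0.25 FPKM. Lpl, lipoprotein lipase, and Lep, leptin, lay near the threshold at 1.06 ± 0.214 and 0.904 ± 0.179 FPKM. Adipoq, adiponectin, had 0, 1, 0, 1 and 5 counts and Plin1, perilipin 1, 1, 1, 3, 1 and 0 counts.

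Hox and limb genes gave a marked positional pattern. Hox genes lie in 4 clusters, A to D, and those with higher numbers are used further towards the tail and towards the tips of the limbs. Of 39 Hox genes with values 12 were detected, 11 of 16 in groups 9 to 13 and 1 of 23 in groups 1 to 8, namely Hoxd8. Hoxa11 was at 29.99, 30.2, 32.5, 29.5 and 31.4 FPKM and Hoxa10 at 28.7, 30.5, 28.3, 29.8 and 30.1 FPKM. Hoxc11, Hoxa9 and Hoxc10 stood at 13.99 ± 0.747, 10.9 ± 0.822 and 10.01 ± 0.588 FPKM, followed by Hoxd8 (9.38 ± 0.779 FPKM). Hoxd10, Hoxd11 and Hoxd9 were at 5.51 ± 0.394, 5.45 ± 0.286 and 4.95 ± 0.457 FPKM, with overlapping ranges. The group 13 genes, of hand and foot, were lower, with Hoxa13 at 2.39 ± 0.458 FPKM and Hoxd13 at 1.19 ± 0.0634 FPKM. Hoxc9 had 1.74 ± 0.459 FPKM. The 10 genes of cluster B with values had at most 4 counts in any library. Pitx1 and Tbx4, which specify the hindlimb, were at 8.73, 9.47, 11.3, 9.41 and 7.59 and at 4.73, 5.73, 5.64, 5.73 and 6.01 FPKM, whereas Tbx5, which specifies the forelimb, was listed at 0 in all 5 libraries. Shox2 and Tbx15, further limb regulators, had 18.02 ± 0.557 and 17.4 ± 0.614 FPKM.

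**Figure D4:**
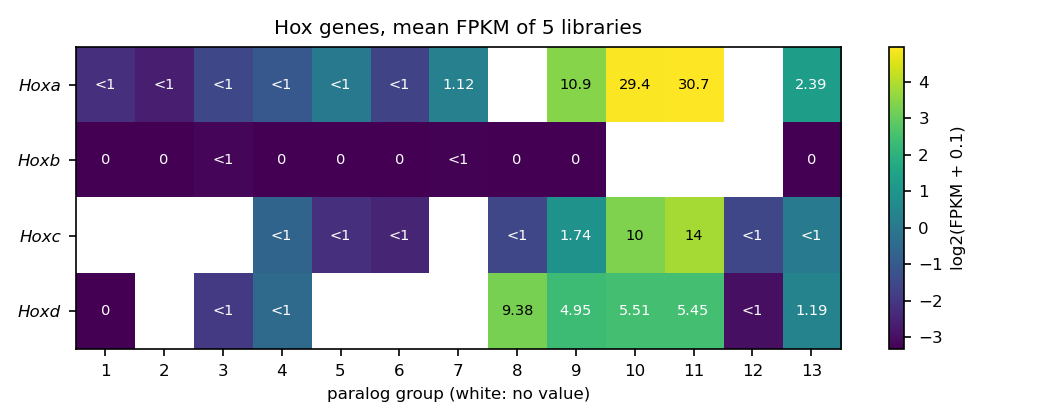
Mean FPKM over the 5 libraries of the 39 Hox genes with values, by cluster (rows) and paralog group (columns), coloured by log2(FPKM + 0.1) and printed where at least 1; white squares have no value. Levels of 9.38 to 30.7 FPKM lie in Hoxa9 to Hoxa11, Hoxc10, Hoxc11 and Hoxd8, and the row of cluster B is at or near 0.

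Grem1, a BMP antagonist, stood above the 11 BMP ligands measured in each library. BMPs are bone-inducing ligands that signal through SMAD1, SMAD5 and SMAD9 to Id genes. Of 11 ligands 3 were detected, Bmp4 at 36.4, 39.8, 43.7, 40.8 and 37.2 FPKM, Bmp2 at 5.46, 4.70, 3.66, 4.57 and 2.96 FPKM and Bmp6 at 1.94 ± 0.325 FPKM. Of 7 receptors 6 were detected, with Bmpr1a at 17.9 ± 3.39 FPKM and Acvr1, the receptor mutated in an inherited form of heterotopic ossification in humans, at 12.6 ± 0.813 FPKM. Of 13 antagonists and inhibitors 10 were detected. Grem1, gremlin, was at 532, 509, 462, 519 and 523 FPKM, 12.96 ± 1.56 times Bmp4, and Fstl1 and Fst were at 395 ± 15.99 and 31.7 ± 1.41 FPKM. Noggin (Nog) was at 3.76 ± 0.447 FPKM. The target genes Id3, Id2, Id1 and Id4 were all detected, at 237 ± 18.8, 55.9 ± 2.40, 37.01 ± 4.03 and 24.3 ± 0.463 FPKM. Protein and activity of these factors were not measured.

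In the TGF-beta family Tgfb3 (chromosome 6, 105704236 to 105726564, minus strand) was at 1149.7, 1138, 1178, 1114 and 1119 FPKM, 13.4 ± 1.24 times Tgfb1 (86.04 ± 9.57 FPKM) and above Tgfb2 (74.9 ± 4.51 FPKM). Ltbp2 and Ltbp1, of the family of latent TGF-beta binding proteins, had 440.3 ± 17.1 and 121 ± 2.63 FPKM, and the receptor Tgfbr2 52.9 ± 2.22 FPKM. Inhba, a chain of activin, was the least even gene among those of at least 5 FPKM once a length trend was taken off, a choice made after its values were seen. Its values were 13.7, 8.12, 2.69, 3.79 and 6.34 FPKM, with replicate 1 highest and replicate 3 lowest. Mstn, myostatin, was steadier at 2.48 ± 0.334 FPKM.

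Wnt ligands were sparse. Of 16, 2 were detected, Wnt5a at 12.6 ± 1.05 FPKM and Wnt9a at 1.26 ± 0.166 FPKM. Of 23 receptors, antagonists and effectors 13 were detected, with Dkk3 at 136 ± 2.31 FPKM, the coreceptor Lrp5 at 12.7 ± 0.447 FPKM and Axin2, a feedback target, at 6.28 ± 0.594 FPKM. Lef1 and Tcf7, the nuclear partners of beta-catenin, were below 1 FPKM at 0.316 ± 0.0716 and 0.59 ± 0.0311 FPKM. In the hedgehog pathway 4 of 11 genes were detected. Its ligands Shh and Ihh were listed at 0, and its target Gli1 had 0, 1, 6, 9 and 17 counts. Of 13 Notch genes 4 were detected, Rbpj, Notch2, Hes1 and Jag1, at 29.5 ± 2.37, 12.5 ± 0.813, 11.2 ± 0.733 and 10.2 ± 0.881 FPKM. Of 28 other growth factor genes 23 were detected. Igfbp7 led with 588 ± 47.9 FPKM, Fgf10 and Fgf7 had 48.1 ± 5.60 and 33.8 ± 2.498 FPKM, and Igf1 had 1.74 ± 0.289 FPKM. Igf2 and Igfbp5 were near the floor, at 0.063 ± 0.0321 and 0.117 ± 0.028 FPKM.

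The most abundant transcription factors, taken from the deposited annotation after values were seen, were led by Atf4, of the integrated stress response and of osteoblasts, at 157 ± 11.2 FPKM. Prrx1, a homeobox factor of limb mesenchyme, was at 164, 152, 113, 140.1 and 148 FPKM. Xbp1 and Creb3, of the secretory pathway, had 63.2 ± 1.21 and 70.3 ± 1.99 FPKM, and Hand2, of limb and heart, 61.1 ± 4.34 FPKM. Scx held place 21 of that class. Twist1, which holds back Runx2, had 12.2 ± 1.48 FPKM. Of 1445 genes annotated as G protein-coupled receptors 30 were detected (2.08%), led by F2r, the thrombin receptor, at 64.97 ± 2.22 FPKM. The median of that class was 0 FPKM, and its share depends on which receptor families it holds, which was not examined. Of 18 MAPK genes 14 were detected. Mapk14 (p38 alpha) was at 23.1 ± 0.769 FPKM and Mapk8 (JNK1) at 3.83 ± 0.582 FPKM. Mapk3 (ERK1) was listed at 0 in all 5 libraries although most cells use it, so a listed 0 does not show absence.

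Genes of cell division were detected throughout. All 20 on the list passed, with Ccnd1 at 184, 177, 174, 173 and 171 FPKM, Cdk1 at 74.6 ± 1.63 FPKM and Mki67 at 11.5, 11.6, 10.9, 11.5 and 11.9 FPKM. Of 12 genes of cell cycle arrest 11 were detected. Cdkn1a (p21) was at 112, 125, 144, 123 and 124 FPKM and Cdkn2a at 16.1 ± 1.58 FPKM. All 11 genes of the glucocorticoid response list were detected, among them Tsc22d3 at 153 ± 4.36 FPKM and Fkbp5 at 35.1 ± 0.849 FPKM, which glucocorticoids induce. Whether the medium held dexamethasone is not given. Of 13 immediate early genes 9 were detected, with a summed level of 184, 186, 214, 189.9 and 181 FPKM in replicates 1 to 5, highest in replicate 3. Most of that sum was Ier3, with a mean of 134 FPKM (125 to 155), while the mean of Fos was 1.87 FPKM. Of 13 inflammatory genes 9 were detected. The chemokines Ccl2, Cxcl1 and Ccl7 were at 278 ± 14.8, 232 ± 14.6 and 113 ± 8.39 FPKM, while Il6 had 3.05 ± 0.584 FPKM and Tnf a mean of 0.00283 FPKM.

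Of the lists for other cell types, those of endothelium, leukocytes, neural cells and skeletal muscle had 1 or 2 members detected, and the osteoclast list had 4. For endothelium 1 of 12 was detected, Egfl7 (2.56 ± 0.245 FPKM), and Cdh5, its defining cadherin, was listed at 0. The summed level of that list was 3.22 to 3.44 FPKM. For leukocytes 1 of 17 was detected, Cd14 (27.3, 28.2, 27.2, 27.00 and 25.7 FPKM), and Ptprc (CD45) was listed at 0. The list summed to 27.3 to 29.6 FPKM. Cd68, of macrophages, was at 0.842, 1.32, 0.632, 1.56 and 1.52 FPKM. For neurons and glia 2 of 15 were detected, S100b (149.9, 163, 179, 161 and 161 FPKM) and Stmn2 (1.86 ± 0.172 FPKM), and the glial regulator Sox10 was listed at 0. For skeletal muscle 2 of 16 were detected, Acta1 (105 ± 7.51 FPKM) and Tnnt3 (1.32 ± 0.22 FPKM), while Myog was listed at 0 and Myod1 had 4, 6, 12, 9 and 3 counts. Among osteoclast genes 4 of 9 were detected, of which Ctsk, a collagen-degrading protease, was at 114, 114, 115, 113 and 117 FPKM. The other detected members were Atp6v0d2, a proton pump subunit, Acp5, the tartrate-resistant phosphatase, and Nfatc1, the osteoclast regulator, at 2.85 ± 0.46, 1.40 ± 0.211 and 1.38 ± 0.0245 FPKM, and Calcr was listed at 0. No gene of the epithelial (9) or erythroid (4) lists was detected, and Krt18 was among those listed at 0. The lists were drawn up with 11 and 7 genes, but Krt14, Krt19, Hba1, Hba2 and Hbb-bs had no values. List sizes here count only genes with values, and Cebpa (adipocyte) and Msx1 (osteoblast) also had none. For the sheath around tendon and the synovium 2 of 8 were detected, Fn1 and Cd55 (19.7 ± 1.40 FPKM), and Prg4, lubricin, had 0.202 ± 0.0473 FPKM. The 19 genes of the Y chromosome in the table were listed at 0 in all 5 libraries; at this depth the upper limit behind such a 0 is 3 counts, which is 0.0637 to 0.0717 CPM.

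Genes differed in how evenly they were measured. The median coefficient of variation over the 5 libraries was 8.42% for the 10341 genes with a mean of at least 1 FPKM, and 28.9% for genes of 0.1 to 1 FPKM. Among genes of at least 10 FPKM the steadiest was Amotl2, a partner of YAP, at 89.8, 90.6, 90.7, 89.7 and 90.3 FPKM. Casq2, the calcium store protein of heart and slow muscle, was also among the 10 steadiest, at 118, 116, 116, 115 and 117 FPKM. The least even was Ddx6, an RNA helicase of processing bodies, at 18.03, 10.5, 4.46, 8.19 and 10.3 FPKM, followed by Lrrc58 (43.6, 29.03, 11.2, 19.5 and 26.5 FPKM) and Gda (45.8, 29.8, 12.8, 22.2 and 27.7 FPKM). In each of these 3 genes replicate 1 was highest and replicate 3 lowest, as for Lox, Itga1, Peak1, Cpd and Tent5a, which were also among the 10 least even.

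Over the genes of at least 1 FPKM, replicates 1 and 3 also differed along gene length. The first principal component of log2 FPKM held 64.6% of the variance between the 5 libraries, with scores of -16.8, -4.28, 20.8, 4.09 and -3.73 for replicates 1 to 5. In genes of up to 1807 bp the median log2 ratio to the mean of the libraries was -0.12 in replicate 1 and 0.14 in replicate 3. In genes of 4974 bp or more it was 0.12 and -0.13. Lox (1783 bp by the table) and Ddx6 (2698 bp) followed the order of the long genes although neither is among the longest genes. The summed level of 74 ribosomal protein genes, which are short, was 18835, 21110.5, 24603, 21719 and 20995 FPKM in replicates 1 to 5, and that of the 13 mitochondrial genes 62401, 69306, 73009, 76620.0 and 69989 FPKM. The values of Lox, Myocd, Inhba and Thbs1 had replicate 1 highest and replicate 3 lowest, and the summed contractile list had the reverse. With the length trend taken off, the coefficient of variation went from 30.5% to 34.9% for Lox and from 62.6% to 67.0% for Inhba (1544 bp). Both are in the group of up to 1807 bp, where the trend runs opposite to their values. Taking it off thus raises their spread by construction. The coefficient also rose for Ddx6 (48.1% to 49.2%) and Tent5a (37.4% to 39.6%). It fell for Lrrc58 (46.4% to 44.5%), Cpd (34.7% to 31.1%), Itga1 (32.7% to 30.4%), Gda and Peak1. The part of the difference along gene length in any of these values was not tested further. Without replicate 3 the biological coefficient of variation of the counts (edgeR, group mean only) was 0.0813, against 0.110 with all 5. It was 0.0953 without replicate 1 and 0.120 to 0.123 without replicate 2, 4 or 5.

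**Figure D5:**
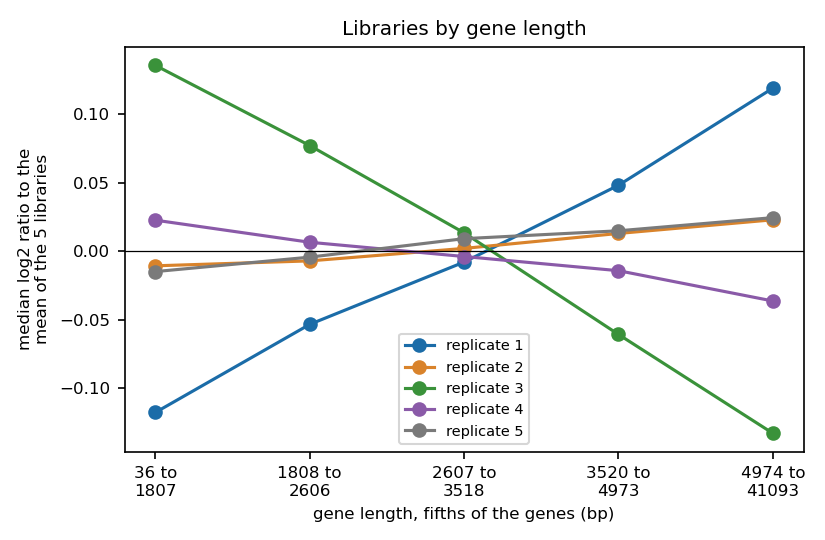
Median log2 ratio of each library to the mean of the 5 libraries in 5 equal bins of the 10341 genes with at least 1 FPKM, ordered by gene length in bp. Replicate 3 goes from 0.14 in the shortest to -0.13 in the longest genes and replicate 1 from -0.12 to 0.12, with replicates 2, 4 and 5 between them.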

How the data were processed

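Total RNA from TDSCs was extracted with Trizol and made into libraries with a NEBNext Ultra II kit, per the labels' protocols. The authors deposited a table with read counts per gene, as whole numbers, and FPKM values for each library; HISAT2 2.0.5, HTSeq 0.9.1, StringTie, DESeq and build rn7 are named in the submitters' processing notes, with no role. Whether reads were counted by strand is not given by the labels. In the deposited table, count over FPKM gave 1 length per gene and the column total as the depth, so that the FPKM carry no other normalization. The table had 23052 rows, of which 1 was a repeat and was dropped; 2744 genes without a symbol were named by identifier.

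The 5 control libraries were described with mean, SD and coefficient of variation, and detection was set at 1 FPKM in all 5. There is a single group, so no test between groups was made, and order was read from whether ranges overlap. Genes were named by rule, although some that it picks are not reported here: the 30 highest, up to 8 of each list with its defining markers, the 10 most and 10 least variable at 10 FPKM or more, and the detected Hox genes. The members and lists were chosen with earlier results of these data known. Counts were also fitted with edgeR 4.0.16 (TMM, intercept only; tested on simulated data) and scaled with DESeq2 1.42.0 size factors in R 4.3.3. Library pairs differed by more than counting noise (chi-square per gene 4.85 to 65.5), so no library was taken for a second copy of another. Here n is the number of libraries, 5. The check cannot show separate cultures, because counts were scaled by depth only and a difference along gene length also raises the value. Alternatives were other thresholds (0.5 and 2 FPKM), the mean in place of all 5 libraries, TPM, shares of counts, removal of a length trend and leaving out each library. Promoters came from the RefSeq table, matched by gene identifier, and no genome was used. Intervals and floors cover counting error only.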

Additional observations from a re-analysis of the deposited data

Results flagged for a closer look

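Named genes, list sums, ratios and measures of whole libraries were examined, 297 values in all. In 21 of them 1 library stood apart from the other 4 by more than Dixon's limit for 5 samples, a gap above 0.71 of the range. Chance alone passes that limit in about 1 in 20 groups. Sums and ratios reuse named genes, and no value below was shown to exceed what chance gives. Replicate 3 was the library in 10 of the 21, replicate 1 in 4, replicate 5 in 4, replicate 4 in 2 and replicate 2 in 1.

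Replicate 3 was highest for Ccn1, at 276 FPKM against 251 to 256 FPKM in the others. It was lowest for Tsc22d3 (146 FPKM against 154 to 156), Tgfbr2 (49.0 against 53.0 to 54.4), Tbx15 (16.3 against 17.5 to 17.9), Fzd7 (10.9, with the others up to 14.6) and Lef1 (0.189 against 0.339 to 0.365). The ratio of Col3a1 to Col1a1 was 0.347 in replicate 3 and 0.393 to 0.407 in the others. The summed proteases and inhibitors reached 4239 FPKM there against 4015 to 4077 FPKM, and the immediate early genes 214 FPKM against 181 to 189.9 FPKM.

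Replicate 1 was lowest for Tbx4 (4.73 FPKM against 5.64 to 6.01), for Prg4 (0.120 against 0.209 to 0.234) and for the summed inflammatory genes (644 FPKM against 703 to 724). Replicate 5 was highest for Dcn (12.7 FPKM against 11.9 to 12.1), Vcam1 (0.144 against 0.0550 to 0.0778) and Adipoq (0.0714 against 0 to 0.0152), and lowest for Plin4 (3.39 against 3.82 to 3.98).

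Genes with a few counts in a single library and 0 in the other 4 pass the limit by construction, since 4 values are equal, and they are included in the counts above. They were Pou5f1 at 0.0648 FPKM in replicate 1, Rgs5 at 0.0151 FPKM in replicate 2, Tnf at 0.0142 FPKM in replicate 3, and Sp7 at 0.0274 and Tnfsf11 at 0.00961 FPKM in replicate 4.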

How the results depend on the processing

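The counts of detected genes and of marker lists, the share of abundant genes, the spread and the ratios were read under alternatives. Of these values 15 moved and 312 did not, where only larger changes were labelled as moved. Among the 312 were adipocyte genes from 6 to 8 (0.5 FPKM and TPM) and osteoblast genes from 10 to 12 (TPM). The total of detected genes was also labelled as not moved. It rose at 0.5 FPKM and under TPM and fell at 2 FPKM. TPM raised every nonzero value above its FPKM, so 1 TPM was a lower threshold than 1 FPKM. Rescaling whole libraries cannot move the ratios or the share. No paired analysis was possible because only 1 group was used and its values come from no test. Detected cartilage genes went from 3 to 5 at 0.5 FPKM and to 6 under TPM. Detected neural and glial genes went from 2 to 4 at 0.5 FPKM and under TPM, and to 1 at 2 FPKM. Detected leukocyte genes went from 1 to 2 at 0.5 FPKM, under TPM and when the mean had to pass. At 2 FPKM skeletal muscle genes went from 2 to 1 and osteoclast genes from 4 to 2. The share of the first 100 genes went from 44.5% of FPKM to 35.7% of counts. The median coefficient of variation went from 8.42% to 10.4% with every gene that had a count in each library, to 6.51% at 10 FPKM or more and to 7.22% with the length trend removed; leaving out 1 library gave 6.27% (without replicate 3) to 8.96%. Causes beyond the construction of each alternative were not tested. Of the ranks of named genes, 112 values moved by over 1 SD, all under the median or with a library left out; rescaling whole libraries leaves ranks nearly fixed. Depth limits genes at a few counts, such as Sp7, Tnmd and Bglap, whose levels are near the floor of 3 counts.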

Other observations

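Further members of the 30 most abundant transcription factors, picked for their level, are given here as values. Creb3l1, a membrane-bound factor that drives collagen secretion in osteoblasts, was at 36.5, 38.3, 42.3, 38.6 and 35.8 FPKM. Nfe2l2 (NRF2), of the response to oxidants, was at 50.7 ± 2.89 FPKM and Nfe2l1, which controls proteasome genes, at 101 ± 3.40 FPKM. Hif1a, of the response to low oxygen, was at 62.7, 57.5, 43.9, 55.2 and 57.9 FPKM, and Ddit3 (CHOP), of the unfolded protein response, at 28.7 ± 2.17 FPKM. Nr2f2, an orphan nuclear receptor of mesenchyme, had 38.5 ± 2.75 FPKM.

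Further G protein-coupled receptors of the 30 detected, also picked after their values were seen, are given as values. S1pr3 and S1pr2, receptors of sphingosine 1-phosphate, were at 20.01 ± 0.375 and 8.12 ± 0.429 FPKM, and Lpar1, a receptor of lysophosphatidic acid, at 14.2 ± 1.14 FPKM. Gpr176 was at 37.3, 36.2, 36.9, 36.1 and 37.7 FPKM and Adgrg6, an adhesion receptor, at 7.29 ± 0.947 FPKM. The Wnt receptors Fzd2 and Fzd7 had 14.9 ± 1.10 and 13.5 ± 1.49 FPKM.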
